A study of Mus musculus with 35 samples.

Results

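A set of 10 genes of matrix turnover and lung fibroblasts was followed in mouse lung across 7 groups that breathed styrene at different concentrations. They are Mrc2, Mmp14, Mmp2, Timp2, Timp3, Fn1, Dcn, Lum, Pdgfra and Tcf21, of 17097 genes on the array. They were listed by name, all were found, and each was read from the probe sets annotated to that symbol alone. The 10 genes had 19 probe sets, and a gene's brightest probe set over the 35 arrays stands for it unless another is named.

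All mice were adult male CD-1, an outbred stock, supplied by Taconic, and the whole lung of each was hybridised to 1 Affymetrix array. The 7 groups of 5 mice breathed clean air (0 ppm) or styrene at 1, 5, 10, 20, 40 or 120 ppm in individual wire-mesh cages, and were killed on the morning after the last exposure. Styrene is an industrial solvent and plastics monomer. The labels disagree on the length of exposure: the protocol and sample titles give a single exposure of 6 hours on 1 day, while the series title and the sample attributes give 5 days. They call the arrays biological replicates and name no batch or scan date.

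Lung matrix is made and remodelled largely by fibroblasts. At the cell surface the membrane protease MMP14 binds the inhibitor TIMP2, and this complex captures and activates the secreted gelatinase MMP2, so that TIMP2 both helps and blocks MMP2. TIMP3 is an inhibitor held in the matrix, and MRC2 (Endo180) is the receptor by which fibroblasts take up collagen fragments for breakdown in lysosomes. Fibronectin (Fn1) is the adhesive glycoprotein of early matrix, decorin (Dcn) and lumican (Lum) are small leucine-rich proteoglycans on collagen fibrils, and PDGFRA and the transcription factor TCF21 mark alveolar fibroblasts.

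Values are log2 expression, on which a difference of 1 is a doubling, and they rank arrays for 1 probe set, not genes against each other. Differences were tested with limma over all 17097 genes with Benjamini-Hochberg adjustment, called at an adjusted p under 0.05, and are given ± SE of that fit. The p-values measure only the spread between mice. The comparisons with air share the same 5 control mice.

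The lung label fitted its markers, with Sftpc, Scgb1a1 and Ager at 13.77, 13.73 and 13.59 in air. The arrays did not share a distribution: the interquartile range of log2 values was 2.66 to 3.16 on the 10 arrays of air and 1 ppm and 3.28 to 3.54 on the 25 arrays of 5 to 120 ppm. This gap lies between the same groups as the changes below, so the step from 1 to 5 ppm and a difference in array spread cannot be told apart. The median change over all genes against air was -0.23 at 5 ppm and between -0.11 and -0.15 from 10 to 120 ppm. Centring on array medians moved it to -0.33 at 5 ppm, and quantile normalization moved it to -0.14.

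None of the 10 genes was called at 1 ppm against air by limma, where 2.46% of all genes were, and 0 of the 10 had an unadjusted p under 0.05 (2664 of all genes did). From 5 ppm most were called, as were most genes on the array. At 5 ppm 5 of the 10 rose and 4 fell (77% of all genes were called, 29.6% higher and 47.4% lower). At 10 ppm 6 rose and 2 fell (66.4% of all genes, 29% higher and 37.4% lower). The 20 ppm group had 5 higher and 2 lower (63.6% of all genes, 29.4% higher and 34.2% lower). The 40 ppm group had 6 higher and 2 lower (64.8%, 28.6% higher and 36.2% lower), and the 120 ppm group 5 higher and 3 lower (68.9%, 29.8% higher and 39.1% lower). The 6 higher at 10 and at 40 ppm include Timp2 on its brightest probe set, while its next brightest fell at both. Counted in either direction, the calls lie near the array's own shares. By direction, more of the 10 were higher, and fewer lower, than of all genes, at each of these 5 concentrations; the 10 were chosen by name with earlier results known, so nothing is read from this.

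**Figure D1:**
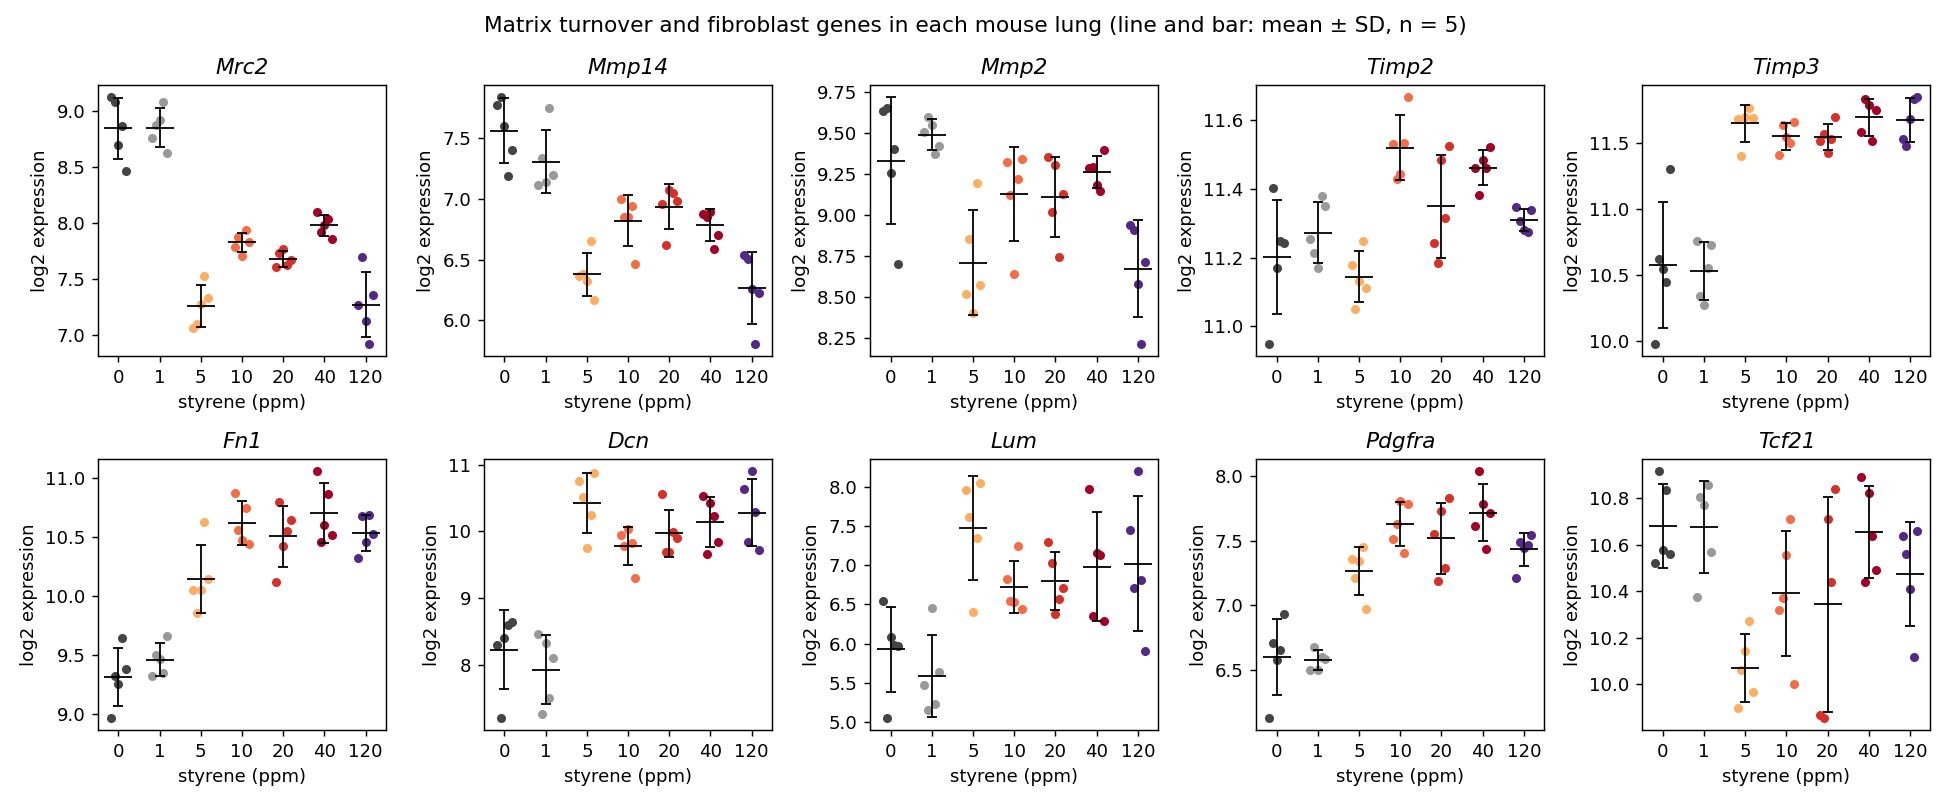
Log2 expression of the 10 genes (y axis, a scale of its own per gene) in each mouse against styrene in ppm (x axis, evenly spaced groups); points are mice, the line and bar are mean ± SD of 5. Air and 1 ppm lie together in each panel; from 5 ppm Mrc2 and Mmp14 lie below air and Timp3, Fn1, Dcn and Pdgfra above it, with no overlap.

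The direction split by gene. Timp3, Fn1, Dcn and Pdgfra rose, and Mrc2 and Mmp14 fell, at every concentration from 5 to 120 ppm with no overlap with air. With Tcf21 at 5 ppm and the brightest Timp2 probe set at 10 ppm, 7, 7, 6, 6 and 6 of the 10 did not overlap air from 5 to 120 ppm, beside 57.9%, 49.2%, 41.3%, 47.6% and 50.7% of all genes. At 1 ppm it was 0, beside 1.25%. Lum rose at each of these 5 concentrations but overlapped air in all. Mmp2, Timp2 and Tcf21 were called at only some. The median change of the 10 was 0.30, 0.56, 0.51, 0.66 and 0.47 at 5, 10, 20, 40 and 120 ppm. In a lung homogenate, a change in the number of fibroblasts or other cells and a change in RNA per cell cannot be told apart.

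**Figure D2:**
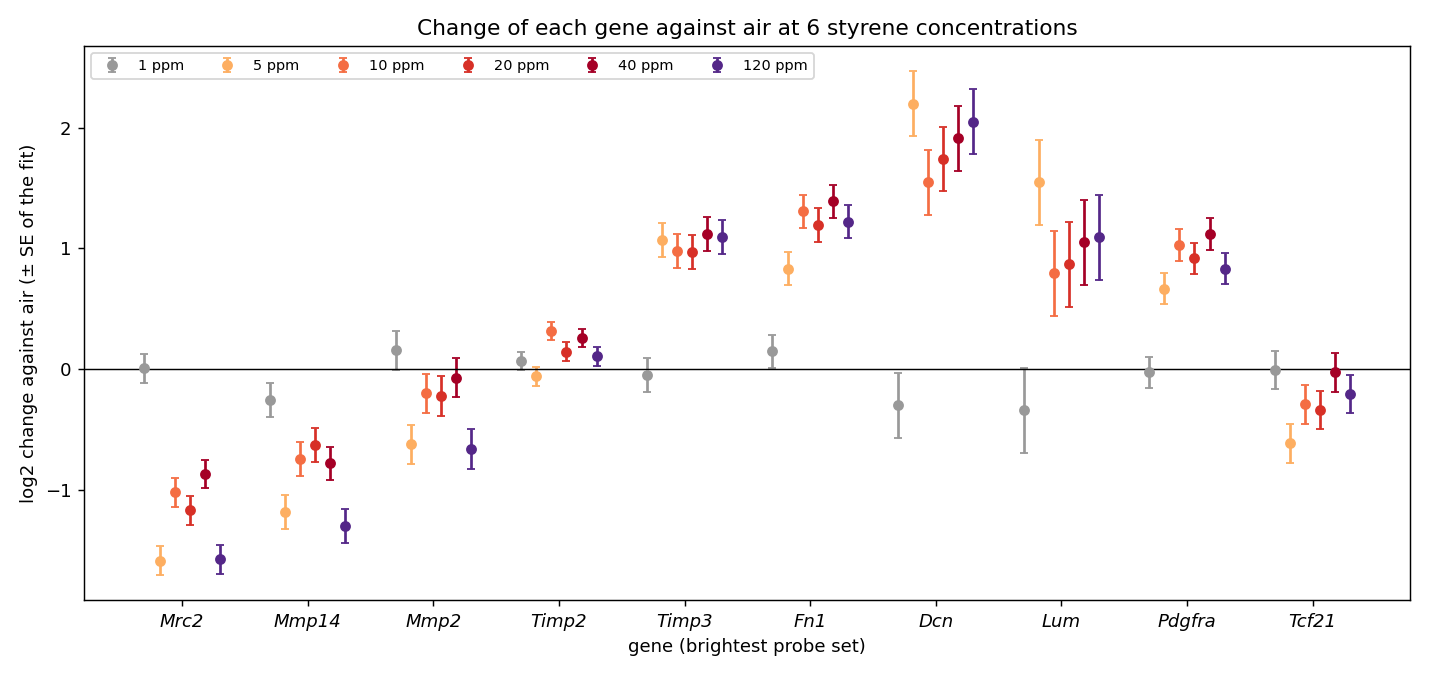
Change of each gene against air on the log2 scale (y axis) at each styrene concentration (colour); points are the limma estimate and bars ± SE of the fit on 5 mice per group. The grey 1 ppm points lie within 0.34 of the zero line, while Dcn reaches 2.20 and Mrc2 -1.58 at 5 ppm.

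Mrc2, the collagen uptake receptor, fell most steeply among the 4 genes that were lower. Its log2 expression in air was 9.13, 9.08, 8.70, 8.87 and 8.47 in the 5 mice. At 5 ppm the mice read 7.07, 7.10, 7.28, 7.53 and 7.34, and at 120 ppm 7.27, 7.70, 7.13, 6.92 and 7.36. Neither group overlapped air. The falls were -1.58 ± 0.119 at 5 ppm (adjusted p = 1.36e-13, 3-fold) and -1.57 ± 0.119 at 120 ppm (adjusted p = 4.56e-13, 2.97-fold).

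By mean, the middle concentrations were lowered less, though 120 ppm was not called against 10 or 20 ppm (adjusted p = 0.1006 and 0.2405). Mrc2 averaged 7.83 ± 0.09, 7.68 ± 0.07 and 7.98 ± 0.09 in the 10, 20 and 40 ppm groups (SD, n = 5), against 8.85 ± 0.27 in air. The changes were -1.02, -1.17 and -0.87, each called in 5 of 5 mice below every air mouse. Air and 1 ppm (8.86 ± 0.17) did not differ beyond their spread. Ordered by mean, 40 ppm was followed by 10, 20, 120 and 5 ppm, with no neighbours among these called different. The second probe set of Mrc2 fell too, with changes of -1.85, -0.94 and -1.56 at 5, 40 and 120 ppm.

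Mrc2 was lower at 120 than at 40 ppm, and this comparison called few genes. At 40 ppm the mice read 8.10, 7.92, 7.99, 8.04 and 7.86, all above the highest mouse at 120 ppm. The difference was -0.71 ± 0.119 (adjusted p = 0.0103, 1.63-fold). Only 3 of 17097 genes were called (0.0175%), all lower: Mrc2, the elastic fibre protein Eln (-1.30 ± 0.211, adjusted p = 0.0103) and Loxl1, an enzyme that cross-links elastin (-0.70 ± 0.131, adjusted p = 0.0462). In all, 1625 genes had an unadjusted p under 0.05.

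The size of the Mrc2 difference held without each mouse (-0.81 to -0.62), but the call lay near the threshold. Leaving out 40 ppm mouse 1, 3 or 4 ended it (adjusted p = 0.0691, 0.0502 and 0.0534), as did leaving out 120 ppm mouse 3 or 4 (adjusted p = 0.0682 and 0.102). It was also lost in a fit of these 2 groups alone (-0.71, adjusted p = 0.165) and on the mean of both probe sets (-0.67, adjusted p = 0.0754). The second Mrc2 probe set alone read -0.63 with adjusted p = 0.276.

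**Figure D3:**
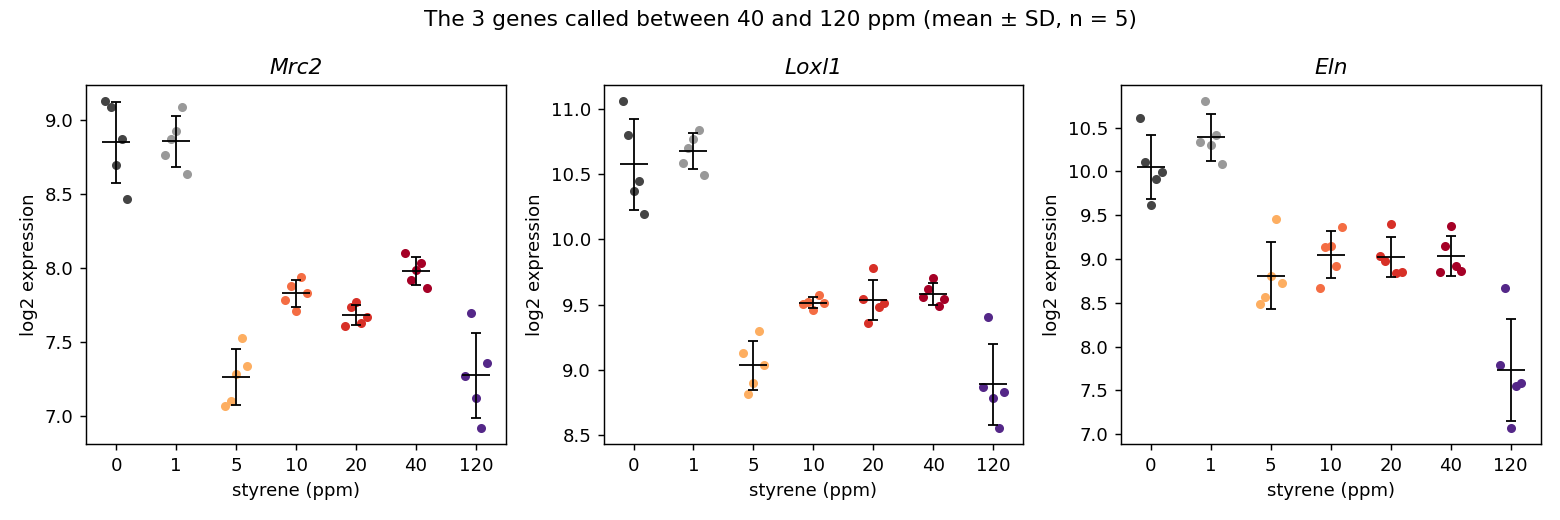
Log2 expression of Mrc2, Loxl1 and Eln (y axis) in each mouse against styrene in ppm (x axis), with mean ± SD of 5. Each is high in air and 1 ppm and lower from 5 ppm; Mrc2 averages 7.27 at 5 ppm, 7.68 to 7.98 from 10 to 40 ppm and 7.28 at 120 ppm.

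By Pearson's r, Loxl1 was also the gene whose level followed Mrc2 most closely between mice of the same group. Over deviations from the group means on 35 arrays, Pearson's r with Loxl1 was 0.831 (Spearman's rho 0.663). Without the pair of arrays farthest from the median, r was 0.765. The next were Trafd1 (0.764, rho 0.743) and Rtl8a (0.754, rho 0.575), so by rank Trafd1 was closer to Mrc2 than Loxl1. The arrays did not share a distribution, and the correlations describe these arrays only.

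Mmp14, the membrane protease that activates MMP2, was lower from 5 ppm. In air its log2 expression was 7.78, 7.84, 7.60, 7.19 and 7.40. At 120 ppm it was 6.54, 6.51, 6.26, 5.80 and 6.22, below every air mouse. The fall was -1.29 ± 0.14 (adjusted p = 8.58e-10, 2.45-fold). The change was -1.18 at 5 ppm (adjusted p = 3.63e-09) and -0.74, -0.62 and -0.78 in the 10, 20 and 40 ppm groups (adjusted p = 2.3e-05, 0.000237 and 1.13e-05). Its second probe set fell at the same 5 concentrations, with changes of -1.04, -0.53, -0.46, -0.61 and -0.98.

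The middle groups of Mmp14 again lay nearer to air than the ends did. In descending order of the means, air and 1 ppm stood first, then 20, 10 and 40 ppm, then 5 and 120 ppm. Neighbours were called different only between 1 and 20 ppm (adjusted p = 0.02, in a comparison where 68% of all genes were called) and between 40 and 5 ppm (adjusted p = 0.024). Against 40 ppm, the 120 ppm mice were lower without overlap (-0.52), with adjusted p = 0.219. One mouse stood low in each of 2 groups, mouse 5 at 10 ppm (6.46) and mouse 2 at 20 ppm (6.62).

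Mmp2, the gelatinase that MMP14 activates, was called lower than air at the ends only. It averaged 9.33 ± 0.39 in air and 8.71 ± 0.32 and 8.67 ± 0.29 in the 5 and 120 ppm groups (SD, n = 5). The changes were -0.62 ± 0.163 (adjusted p = 0.00103) and -0.66 ± 0.163 (adjusted p = 0.000673), and both groups overlapped air through its mouse 5 (8.70). At 10, 20 and 40 ppm the differences were -0.20, -0.22 and -0.07 and were not called. At 120 ppm Mmp2 was not called against 10, 20 or 40 ppm (adjusted p = 0.637, 0.313 and 0.229). At 5 ppm it was called lower than at 40 ppm (adjusted p = 0.00873) and not called against 10 ppm (adjusted p = 0.0527). Against 1 ppm in place of air, 20 ppm was called lower (-0.38, adjusted p = 0.0409). By mean, 20 ppm and 5 ppm were the only neighbours called different (adjusted p = 0.049). Without air mouse 5 the differences at 10 and 20 ppm were called, at -0.36 and -0.38. Within groups Mmp2 followed Arpc4 most closely (r = 0.775) and Mmp14 followed Arhgap23 (r = 0.746), while Mrc2 correlated with Mmp2 at 0.617 and with Mmp14 at 0.529.

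Sequence before the start site was in RefSeq's table for 5 of the 10 genes: Mmp14, Timp2, Timp3, Pdgfra and Tcf21. The 250 bases upstream are printed for 3 that moved at all 5 concentrations, 1 that fell and 2 that rose, 5′ to 3′ on the gene's strand, in build GRCm38.p6. Capitals mark the motifs searched on both strands. These were the TATA box as TATAA, the binding site of NF-Y as CCAAT, the SP1 or GC box as GGGCGG, and the AP-1 site as TGACTCA.
Mmp14: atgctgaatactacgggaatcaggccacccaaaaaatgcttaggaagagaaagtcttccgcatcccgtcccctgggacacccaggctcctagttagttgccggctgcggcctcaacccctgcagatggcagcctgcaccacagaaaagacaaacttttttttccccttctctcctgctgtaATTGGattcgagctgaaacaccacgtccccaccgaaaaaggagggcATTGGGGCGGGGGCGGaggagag
Timp3: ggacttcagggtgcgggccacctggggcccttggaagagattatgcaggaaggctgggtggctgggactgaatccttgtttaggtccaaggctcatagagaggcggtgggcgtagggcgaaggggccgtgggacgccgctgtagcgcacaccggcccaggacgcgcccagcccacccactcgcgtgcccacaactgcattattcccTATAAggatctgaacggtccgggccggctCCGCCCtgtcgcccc
Pdgfra: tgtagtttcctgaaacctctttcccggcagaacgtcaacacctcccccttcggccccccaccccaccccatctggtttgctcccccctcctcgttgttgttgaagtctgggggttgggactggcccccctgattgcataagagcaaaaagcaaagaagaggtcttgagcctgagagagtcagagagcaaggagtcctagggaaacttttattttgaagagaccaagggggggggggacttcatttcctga

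Mmp14 (chr14:54431348-54431597, plus strand) held the NF-Y motif in reverse 2 times and the GC box 2 times, and the last NF-Y motif overlaps a GC box. Timp3 (chr10:86300162-86300411, plus strand) held 1 TATA box and 1 GC box in reverse. Pdgfra (chr5:75152001-75152250, plus strand) held none of the 4. Over 32851 promoters of the same length, 22.8% held the TATA box, 33.8% the NF-Y motif, 32.7% the GC box and 4.46% the AP-1 site. CpG dinucleotides numbered 10 in Mmp14, 18 in Timp3 and 4 in Pdgfra, beside a median of 6. A match describes letters in this window only.

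Timp2, which bridges MMP14 and MMP2, gave opposite answers on its 5 probe sets. The brightest probe set averaged 11.20 ± 0.17 in air, and 11.14 ± 0.07, 11.52 ± 0.10 and 11.31 ± 0.03 in the 5, 10 and 120 ppm groups (SD, n = 5). It rose at 10 ppm (0.32 ± 0.076, adjusted p = 0.000487, no overlap) and at 40 ppm (0.26, adjusted p = 0.00354, overlapping). At 5, 20 and 120 ppm it read -0.06, 0.15 and 0.11 and was not called.

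The next brightest probe set of Timp2 fell at all 5 concentrations. Its changes were -0.91, -0.46, -0.45, -0.50 and -0.56 at 5, 10, 20, 40 and 120 ppm, and adjusted p ran from 2.3e-11 to 2.6e-05. A pair of others fell at 4 of these 5 concentrations, and the fifth fell at 5 ppm only (-0.77). The mean of the 5 probe sets was lower at 5, 20, 40 and 120 ppm (-0.63, -0.25, -0.22 and -0.31, all called). So no direction can be given for Timp2 RNA as a whole.

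A brightest probe set called against another of the same gene occurred in 6.36% of the 7180 genes with several probe sets at 10 ppm and in 5.88% at 40 ppm. Timp2 was the only one of the 4 such genes here to show it, as Mrc2, Mmp14 and Timp3 moved 1 way on every probe set. Within groups the brightest Timp2 probe set followed Spon1, Pcolce2 and Prelp (r = 0.771, 0.769 and 0.734), which encode matrix proteins. Without the pair of arrays farthest from the median of each, r was 0.632, 0.629 and 0.694.

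**Figure D4:**
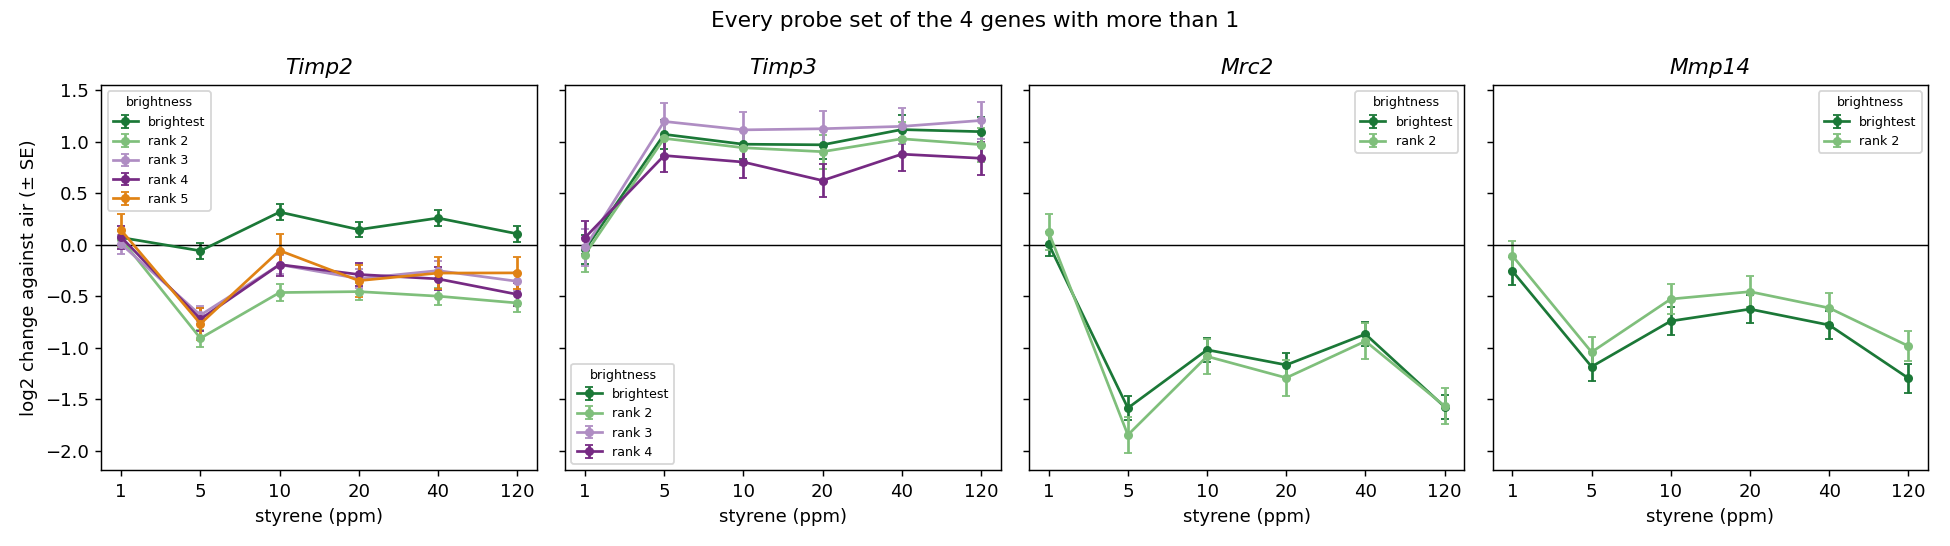
Change against air on the log2 scale (y axis, ± SE of the fit) for each probe set of the 4 genes with more than 1, against styrene in ppm (x axis, evenly spaced); colour ranks probe sets by brightness. The brightest Timp2 probe set reads 0.32 at 10 ppm while the next reads -0.46; the probe sets of Timp3, Mrc2 and Mmp14 keep together.

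Timp3, the matrix-bound inhibitor, rose by about the same amount at each concentration. In air its log2 expression was 9.97, 10.62, 10.54, 10.44 and 11.30, a wide spread. At 120 ppm it was 11.53, 11.48, 11.68, 11.83 and 11.84, all above the highest air mouse. The changes were 1.07, 0.98, 0.97, 1.12 and 1.10 at 5, 10, 20, 40 and 120 ppm, each ± 0.141, with adjusted p from 2.51e-08 to 3.92e-07. Ordered by mean, none of the 5 groups from 5 to 120 ppm was called different from its neighbour. The other 3 probe sets rose too, by 0.62 to 1.21.

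Within groups, Timp3 followed Fam76a (r = 0.867), Sptan1 (0.843) and Smad4 (0.835), a mediator of TGF-beta signalling. Without the pair of arrays farthest from the median of each, r was 0.762, 0.682 and 0.555. Spearman's rho with Smad4 was 0.613. Its rise was no longer called at any of the 5 concentrations once each array's interquartile range entered the fit (0.35 to 0.53, adjusted p from 0.0794 to 0.326).

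Fibronectin rose less at 5 ppm than above it. In air Fn1 read 8.96, 9.32, 9.25, 9.64 and 9.38. At 5 ppm it read 10.05, 9.85, 10.05, 10.63 and 10.14, and at 40 ppm 11.06, 10.45, 10.60, 10.87 and 10.52. Every mouse from 5 to 120 ppm lay above every air mouse. The rises were 0.83 ± 0.139 at 5 ppm (adjusted p = 2.59e-06, 1.78-fold) and 1.39 ± 0.139 at 40 ppm (adjusted p = 2.38e-10, 2.62-fold), with 1.31, 1.19 and 1.22 at 10, 20 and 120 ppm. Ordered by mean, 40, 10, 120 and 20 ppm came first, then 5 ppm (adjusted p = 0.038 against 20 ppm), then 1 ppm and air. Within groups Fn1 followed Man2a2 most closely (r = 0.745).

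Fn1 was the only 1 of the 10 genes called between 5 and 120 ppm, where it was higher at 120 ppm (19% of all genes called, 12.2% higher). Between 5 ppm and the middle groups more differed, always higher in the middle group. At 10 ppm 5 were higher than at 5 ppm (Mrc2, Mmp14, Timp2, Fn1 and Pdgfra, with 27.2% of all genes called and 17.4% higher). At 20 ppm 5 were higher (40.3% called, 27.7% higher) and at 40 ppm 7 were (33.2% called, 22% higher). Dcn, Lum and Timp3 were in none of these.

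Among 10, 20 and 40 ppm limma called 0 of the 10 genes and 0 of 17097 in any pair. At an unadjusted p under 0.05 it found 1 of the 10 between 10 and 20 ppm, 0 between 10 and 40 ppm and 1 between 20 and 40 ppm (1589, 411 and 983 genes of all).

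Decorin rose most of the 10. In air Dcn read 8.30, 7.21, 8.40, 8.59 and 8.64, mouse 2 standing apart. At 5 ppm it read 10.76, 10.51, 9.76, 10.24 and 10.87, and at 120 ppm 10.63, 9.85, 10.90, 10.29 and 9.72, with no overlap with air. The rises were 2.20 ± 0.268 (adjusted p = 7.14e-09, 4.59-fold) and 2.05 ± 0.268 (adjusted p = 4.27e-08, 4.14-fold). At 10, 20 and 40 ppm they were 1.55, 1.74 and 1.91. Ordered by mean (5, 120, 40, 20 and 10 ppm), no neighbours among these were called different, nor were air and 1 ppm (7.93 ± 0.52).

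Lumican, the neighbour of Dcn on its chromosome with no protein-coding gene between them in RefSeq, rose with wider scatter. In air Lum read 6.54, 5.05, 6.08, 5.99 and 5.97. At 5 ppm it read 7.96, 7.62, 6.40, 7.34 and 8.05, and at 120 ppm 7.45, 6.71, 8.20, 6.81 and 5.91, so that single mice overlapped air. The rises were 1.55 ± 0.352 at 5 ppm (adjusted p = 0.000211) and 1.09 ± 0.352 at 120 ppm (adjusted p = 0.00698).

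At 10, 20 and 40 ppm Lum read 0.79, 0.87 and 1.05 above air (adjusted p = 0.0472, 0.0317 and 0.00971). The call at 10 ppm was lost without any 1 of air mice 2 to 5 or 10 ppm mice 1 to 4. The call at 20 ppm was lost without air mouse 2 or 20 ppm mouse 1 or 2. Quantile normalization ended the calls at 10, 20 and 40 ppm (0.50, 0.60 and 0.78, adjusted p = 0.24, 0.163 and 0.0641).

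Within groups Dcn and Lum moved together (r = 0.799, rho = 0.799 over 35 arrays), and by Pearson's r Lum was the gene most like Dcn. The muscle gene Myoz2 came next (r = 0.775) and was closer to Dcn than Lum by rank (rho = 0.825). Sult1d1 followed (r = 0.765). Lum in turn was most like genes of striated and heart muscle: Mb, the oxygen store myoglobin (r = 0.912), the muscle protein Csrp3 (0.891) and Pln, which restrains the calcium pump (0.871). Dcn correlated with Mb at 0.702 and with Csrp3 at 0.734, and Fn1 correlated with Mb at 0.081. Without the pair of arrays farthest from the median, r of Lum with Mb was 0.900.

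**Figure D5:**
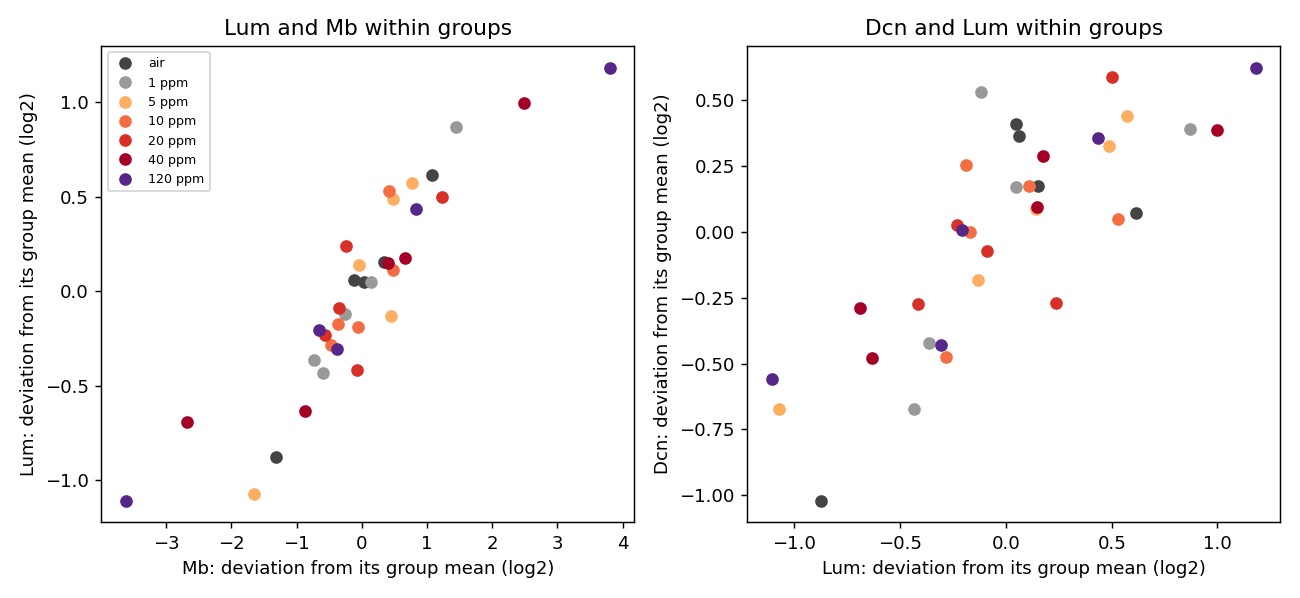
Deviation of each mouse from its group mean on the log2 scale, Lum against Mb (left) and Dcn against Lum (right), coloured by styrene concentration. The 35 points rise together in both, with r = 0.912 and 0.799; the widest spread in Mb is at 40 and 120 ppm.

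Mb spanned 4.54 to 11.97 between the mice at 120 ppm and 8.76 to 11.16 in air. The 120 ppm mouse with the highest Mb, mouse 3, had the highest Lum (8.20), and mouse 5 had the lowest of both. The summed linear level of the 4 measured muscle markers ranged from 62 to 5074 at 120 ppm and from 526 to 1988 in air, and 0 of the 4 rose and 2 fell (Ckm -1.73, Acta1 -0.85). Between groups, Mb was lower at 5, 10 and 120 ppm, where Lum was higher, with changes of -2.01, -2.29 and -1.92. Csrp3 and Pln were not called: at those concentrations Csrp3 read 0.24, -0.060 and 0.49 and Pln 0.30, 0.028 and 0.85, and at 40 ppm they read 1.10 and 1.00. The part of muscle in the Lum and Dcn values was not tested.

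Pdgfra, the PDGF receptor of alveolar fibroblasts, rose at every concentration from 5 ppm. In air it read 6.13, 6.70, 6.57, 6.65 and 6.93. At 40 ppm it read 7.61, 8.04, 7.78, 7.44 and 7.71, above every air mouse. The rises were 0.67, 1.03, 0.92, 1.12 and 0.83 at 5, 10, 20, 40 and 120 ppm, each ± 0.13, with adjusted p from 4.74e-09 to 2.68e-05 and no overlap. The order of the means was 40, 10, 20, 120 and 5 ppm, then air and 1 ppm, and only 5 ppm and air were neighbours called different. Within groups it followed 9930012K11Rik (r = 0.743) and correlated with Timp3 at 0.575 and with Timp2 at 0.525.

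Tcf21, the fibroblast transcription factor, was called lower at 5 ppm and not at the other concentrations on the values as deposited. In air it read 10.52, 10.92, 10.58, 10.84 and 10.56. At 5 ppm it read 9.90, 10.06, 10.14, 10.27 and 9.97, with no overlap. The fall was -0.61 ± 0.159 (adjusted p = 0.000874). At 20 ppm the mice split, 9.87 and 9.86 against 10.44 to 10.84, and the difference from air was -0.34 (adjusted p = 0.0622). At 10, 40 and 120 ppm it read -0.29, -0.03 and -0.21, none called. No neighbours in the order of its 7 means were called different. Centring on array medians called it lower at 10 and 20 ppm too (-0.37 and -0.40, adjusted p = 0.0423 and 0.0307). At 20 ppm quantile normalization (-0.37, adjusted p = 0.0458) and leaving out dim genes (-0.34, adjusted p = 0.0489) did so as well. The call at 5 ppm was lost with the interquartile range of each array as a covariate (-0.72, adjusted p = 0.0966) and with the leading axis within groups (-0.18, adjusted p = 0.84). Both covariates also separate air and 1 ppm from 5 to 120 ppm. Within groups Tcf21 followed Zfp647 most closely (r = 0.701).

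Over all 7 groups the test of any difference called 10 of the 10 genes (82.4% of all genes). On log2 of ppm plus 1, the slope was called for 9: Timp3, Fn1, Dcn, Lum, Pdgfra and the brightest Timp2 probe set were higher and Mrc2, Mmp14 and Mmp2 lower (72.6% of all genes called, 30.9% higher and 41.8% lower). The slope was 0.34 ± 0.0522 for Dcn, 0.21 ± 0.0246 for Fn1 and -0.21 ± 0.033 for Mrc2. The Timp2 slope (0.027, adjusted p = 0.0474) turned to a called fall on the mean of its probe sets (-0.042, adjusted p = 0.0325). It was lost with a replicate block (adjusted p = 0.0542) and in 22 fits that left out 1 mouse. From 5 to 120 ppm alone limma called 0 of the 10 and 1 of 17097 genes (0.00585%). At an unadjusted p under 0.05 it found 1 of the 10, Tcf21 (0.093 ± 0.0378), and 3712 of all genes.

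The leading axis of variation was found within groups, but each array's score on it also carried group differences. Scores ran from 0.66 to 1.73 in air and 1.01 to 1.78 at 1 ppm, against -1.51 to -1.07 at 5 ppm and at most 0.61 at 20 ppm. The interquartile range separates the same groups, so neither fit can tell array spread from concentration. With the interquartile range of each array as a covariate, or with this axis, Mrc2 and Dcn were still called against air at all 5 concentrations. Fn1 and Pdgfra were called at 10, 20, 40 and 120 ppm in both fits and not at 5 ppm. There Fn1 read 0.37 with the first and 0.68 with the second (0.83 without a covariate), and Pdgfra 0.50 and 0.63 (0.67 without). Mmp14 lost its call at 20 ppm with the first (-0.57) and at 5, 10, 20 and 40 ppm with the second (-0.71, -0.43, -0.37 and -0.51). Lum was called at none of the 5 in either fit, though its estimates were larger than without a covariate. They ran from 0.92 to 1.70 with the first and from 1.22 to 2.21 with the second. Mmp2 read 0.041 at 5 ppm with the first and 0.61 with the second, in place of -0.62, neither called, and at 40 ppm the second gave a call in the other direction (0.63, adjusted p = 0.0236).

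Other matrix genes were counted from lists at 120 ppm against air, where 29.8% of all genes were higher and 39.1% lower. Of 13 other matrix metalloproteinases 3 rose and 4 fell, among them the stromelysin Mmp3 (1.29) and Mmp8, a neutrophil collagenase (1.03), higher, and Mmp23 (-1.95) and Mmp11 (-1.32), lower. Of 15 ADAM and ADAMTS proteases 6 rose and 4 fell. The shedding proteases Adam17 (1.77) and Adam9 (1.67) rose and Adamts15 (-1.43) and Adam15 (-1.22) fell. The list medians were -0.24 and 0.20, beside -0.15 over all genes.

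Of 6 inhibitors and plasminogen genes 2 rose and 3 fell. Reck, a membrane inhibitor of metalloproteinases, rose by 1.07, opposite to Timp1 (-0.61), and Tfpi2 read 0.48 and the urokinase receptor Plaur -1.31. Among 8 genes of collagen uptake and lysosomal breakdown, 2 rose and 2 fell. The lysosomal proteases Ctsl (1.49) and Ctss (1.11) rose, and Mfge8 (-1.32) and Ctsd (-0.63) fell.

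Among the 10 other proteoglycans 4 rose, 0 fell and 6 were not called, with a median of 0.27. Ogn, osteoglycin, rose by 0.80 (adjusted p = 0.00907) and Ecm2 by 0.48 (adjusted p = 0.0407). Of 8 adhesive glycoproteins 2 rose (Postn 1.40, Nid1 1.12) and 3 fell, among them Vtn (-1.31) and Ecm1 (-1.13). Of 8 fibronectin receptor genes 5 rose and 3 fell. The integrins Itga8 (1.48) and Itgb1 (1.29) rose beside Fn1, while Sdc4 (-0.96) and Itgb3 (-0.53) fell.

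Pdgfra rose while the other PDGF genes did not: of 5, 0 rose and 2 fell, the ligand Pdgfb (-1.66) and the receptor Pdgfrb (-0.96). Of 14 TGF-beta genes 6 rose and 7 fell. Smad2 (2.02) and Tgfbr3 (1.30) rose, and the ligand Tgfb1 (-1.80) and Ltbp2 (-1.39) fell.

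Fibroblast markers did not move as 1 group. Of 19 measured, 5 rose and 7 fell at 120 ppm, with a median of -0.14 beside -0.15 over all genes. Npnt (1.64) and Meox2 (1.54) rose, and Col1a1, a chain of the main fibrillar collagen (-1.71), and Clec3b (-1.29) fell. Their mean log2 level per mouse was 7.75 to 8.001 in air and 7.65 to 7.84 at 120 ppm. Their summed linear level, which the brightest markers Inmt, Col3a1 and Mfap4 (13.39, 11.98 and 11.65 in air) largely set, was 21083 to 25437 in air and 21448 to 24376 at 120 ppm. Col1a2 was dim in air, at 3.72.

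Markers of some other cells moved in the same groups, while others overlapped air. By mean log2 level per mouse, alveolar type 1 markers ran from 11.79 to 12.04 in air and from 11.91 to 12.23 at 120 ppm. Alveolar type 2 markers ran from 11.87 to 12.31 in air and from 12.01 to 12.19 at 120 ppm. Platelet markers ran from 7.67 to 8.20 in air and from 5.87 to 6.94 at 120 ppm, without overlap. Of 8 smooth muscle and pericyte markers 2 rose and 6 fell at 120 ppm, among them Cnn1 (-2.06) and Notch3 (-1.45) lower and Rgs5 (1.59) and Myh11 (1.35) higher. Their mean log2 level per mouse was 7.50 to 8.52 in air and 7.18 to 7.51 at 120 ppm, overlapping slightly. Their summed linear level, in which Acta2 (11.53 in air, -1.01) weighs most, was 3989 to 8249 in air and 2140 to 2743 at 120 ppm. Of 9 macrophage markers 6 rose and 0 fell, and their sum was 4486 to 6331 in air and 10715 to 16589 at 120 ppm. The part of any of these cells in the changes of the 10 genes was not tested.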

How the data were processed

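Whole lung RNA of 35 mice was measured on Affymetrix arrays. The authors deposited log2 probe set values, made with RMA and Partek per the submitters' processing notes, with version and role not given in the sources used here. Precision is limited by 5 arrays per group. Of 45037 probe sets, 28898 with exactly 1 symbol in the platform annotation gave 17097 genes, each on its brightest probe set, with no filter on dim genes. The 551 with several symbols and 15588 with none were left out.

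A mean per group was fitted to all genes and 35 arrays with limma 3.58.1 in R 4.3.3 (lmFit, eBayes), two-sided, with Benjamini-Hochberg adjustment per comparison over all genes. The script was tested on simulated data. Members, lists and tests were chosen with earlier results of these data known. The genes named were chiefly the 10 members, the largest 2 rises and 2 falls among called genes of the lists at 120 ppm, and genes from the 3 most alike per member by correlation within groups. Not every marker list drawn up was reported, and some were given by count or level alone. Eln and Loxl1 were named after their values were seen. Likeness was ranked by Pearson's r on deviations from group means, and Spearman's rho can order genes differently. Replicate numbers were not taken to pair the mice. No 2 arrays held identical values; the highest correlation between arrays was 0.995. Alternatives were probe set means, normalization, filters, covariates, the threshold, a replicate block and leaving out each mouse.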

Additional observations from a re-analysis of the deposited data

Results flagged for a closer look

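In 4 of 70 groups (10 genes in 7 groups of 5 mice), 1 mouse stood apart, its gap to the next mouse divided by the group's range passing Dixon's critical value of 0.71. Chance gives about 1 in 20 groups, so 4 of 70 is close to that share. The air mouse 2 was low in Dcn (7.21, ratio 0.7634). The 5 ppm mouse 2 was low in Timp3 (11.40, ratio 0.774) and still above every air mouse. In Mmp14, mouse 5 at 10 ppm (6.46, ratio 0.7191) and mouse 2 at 20 ppm (6.62, ratio 0.7426) were the lowest of their groups. No call of these 3 genes against air was lost or turned without the mouse named.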

How the results depend on the processing

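Of 930 changes and slopes of the 10 genes recomputed under alternatives other than leaving out a mouse, 830 kept their direction and their side of the threshold, 60 lost their call, 6 gained one and 34 turned. The cause of each was not tested unless named. The fit with 1 ppm in place of air and every alternative for 120 against 40 ppm were chosen after seeing the data.

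The leading axis was found within groups, but its scores also carried differences between groups. With the leading axis within groups as a covariate, genes called were 648, 2235, 4205, 5445, 5352 and 4279 at 1, 5, 10, 20, 40 and 120 ppm, 5774 for the slope, 6 for the slope from 5 ppm and 6651 for any difference. The members called fell to 2, 4 and 5 at 5, 10 and 120 ppm. Turned were Mrc2 at 1 ppm (-0.016), Mmp2 at 5, 10, 20, 40 and 120 ppm (0.61, 0.60, 0.43, 0.63, 0.20), Tcf21 at 40 and 120 ppm and in slope (0.22, 0.099, 0.046), and the slopes from 5 ppm of Timp2 (-0.0091) and Pdgfra (-0.0067).

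With the interquartile range as a covariate, genes called were 78, 5836, 4922, 4816, 4830 and 5042 at 1, 5, 10, 20, 40 and 120 ppm, 1186 for the slope and 7880 for any difference. Members called were 3, 5, 4, 5 and 5 from 5 to 120 ppm and 1 for the slope. Turned were Mrc2, Mmp2, Timp3, Pdgfra and Tcf21 at 1 ppm (-0.060, -0.13, 0.27, 0.046, 0.040), Mmp2 at 5, 10, 20 and 40 ppm (0.041, 0.34, 0.29, 0.47), Timp2 at 120 ppm (-0.013) and the slopes of Mmp2 (0.00045) and Tcf21 (0.045).

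Leaving out dim genes, which tests fewer genes, called 119, 7613, 7368, 7209, 7276 and 7427 genes at 1 to 120 ppm, 7348 for the slope, 17 from 5 ppm, 8125 for any difference and 9 for 120 against 40 ppm. Centring on medians called 7 for the slope from 5 ppm and 6 for 120 against 40 ppm, and turned Pdgfra (0.0014) and Tcf21 (0.019) at 1 ppm and the Mrc2 slope from 5 ppm (0.0021). Quantile normalization turned Pdgfra (0.11) and Tcf21 (0.0070) at 1 ppm. The mean of probe sets called 2 for the slope from 5 ppm and 0 genes and 0 members for 120 against 40 ppm; it turned Timp2 at 10, 20, 40 and 120 ppm (-0.12, -0.25, -0.22, -0.31) and in slope (-0.042), and Mrc2 in slope from 5 ppm (0.019). With only the groups compared, 3 genes were called at 1 ppm, and 0 genes and 0 members for 120 against 40 ppm. A threshold of 0.01 gave 54 at 1 ppm and 0 and 0 for 120 against 40 ppm. A trended, robust prior gave 5 for the latter. The replicate block called 16 genes for the slope from 5 ppm and ended the call of the Timp2 slope (adjusted p = 0.0542); no other member's call changed with the block. Replicate numbers were not taken to pair the mice, since correlations of same-numbered arrays were not all above 0.1: their means ran from -0.0118 to 0.125 and the lowest was -0.378. Arrays of other numbers in other groups averaged -0.0115. Still, 16 of 35 arrays correlated best with an array of their own number in another group. The count expected by chance was not computed, and what the numbers stand for was not tested.

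Without each mouse in turn, genes called ranged from 179 to 687 at 1 ppm, 1 to 837 for the slope from 5 ppm (837 without 120 ppm mouse 1) and 0 to 14 for 120 against 40 ppm, where members called ranged from 0 to 1. Members called ranged from 7 to 8 at 10 ppm, 6 to 8 at 20 ppm and 8 to 9 for the slope, which Timp2 lost in 22 fits. Changes that turned were small and not called: 120 against 40 ppm for Dcn (-0.017 to 0.28), Lum (-0.26 to 0.32) and Timp3 (-0.065 to 0.029); slopes from 5 ppm for Dcn (-0.020 to 0.046), Mmp2 (-0.037 to 0.022) and Mrc2 (-0.027 to 0.027); 40 ppm for Mmp2 (-0.22 to 0.012) and Tcf21 (-0.085 to 0.033); 1 ppm for Mrc2 (-0.089 to 0.076), Pdgfra (-0.14 to 0.059), Tcf21 (-0.052 to 0.068) and Timp3 (-0.20 to 0.14). Tcf21 at 20 ppm was called without 20 ppm mouse 3 or 5, and Timp2 at 20 ppm without air mouse 2 or 20 ppm mouse 2.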
